A study of Mus musculus with 2 samples.

Results

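The genes described here are the collagen genes outside the core of cartilage, each encoding a chain of a collagen, the triple-helical proteins that make up most of the extracellular matrix. They were taken as the probe sets whose only gene symbol in the platform annotation has the form Col, number, a, number, without Col2a1, Col9a1 and Col11a2. This gave 78 of 45101 probe sets, for 39 of 18193 genes. The cells were mouse embryonic fibroblasts, a mixed culture grown out of dissociated embryos, of strain C57BL/6, embryonic day 12.5 and passage 1. One culture was wild type and the other was Phc2 L307R/L307R, homozygous for a missense change in Phc2, a subunit of Polycomb repressive complex 1. RNA of each was hybridised to 1 Affymetrix array, so no value has a replicate (the labels do not say how many embryos gave each culture), no difference was tested for significance and each is a difference between 2 cultures.

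Collagen chains fold in threes into a helix and are sorted by what the finished molecule builds. Fibrillar collagens form the banded cables of skin, bone and tendon, type IV collagen forms the sheet of basement membranes, fibril-associated collagens coat the cables, and transmembrane collagens are anchored in the plasma membrane. Fibroblasts are the main source of the fibrillar kinds. The name given to the group is only partly apt, since Col9a2, Col9a3, Col10a1, Col11a1 and Col27a1, all taken in by the rule, are also known from cartilage.

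Values are MAS5 signals, linear intensities per probe set, and log2 ratios are those of Phc2 L307R over wild type. A signal below the floor of 94.8, the higher of the arrays' medians, was raised to it, and a ratio that uses such a value is a bound. Each gene is given by its probe set of highest mean signal and counted as measured when this exceeded the floor on either array, as it did for 31 of the 39 collagen genes and 11408 genes in all. The 8 that were not measured were Col4a3, Col4a4, Col6a4, Col6a5, Col9a2, Col13a1, Col17a1 and Col20a1. Of the 31, 28 lay above the floor on both arrays and 3 on the Phc2 L307R array alone. The error at hand is the disagreement between probe sets for the same gene. Its SD on the log2 scale was 0.32 over 5460 genes and 0.31 over the 16 collagen genes with at least 2 measured probe sets. Such probe sets share the same cultures and arrays, so this SD holds no error between cultures or between arrays. A ratio beyond it is therefore not shown to exceed those errors. The SD between genes above the floor on both arrays was also 0.32, over 10703 genes.

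The bases before the start sites are shown for members whose ratios lay close together, the fibrillar Col1a2, Col3a1 and Col5a1 and the type VI chains Col6a1 and Col6a3, and for Col8a1, whose ratio lay near 0. Each is the 250 bases before the annotated start, 5′ to 3′ on the strand of the gene, from RefSeq on GRCm38.p6. Capitals mark the letters CCAAT (the box bound by NF-Y), TATAAA (the TATA box) and GGGCGG (the GC box of Sp1), or their reverse complements. The windows lie at chr6:4505368-4505617 on the plus strand for Col1a2, chr1:45311288-45311537 on the plus strand for Col3a1 and chr2:27886175-27886424 on the plus strand for Col5a1. On the minus strand, they lie at chr10:76726045-76726294 for Col6a1, chr1:90843972-90844221 for Col6a3 and chr16:57754738-57754987 for Col8a1.
Col1a2: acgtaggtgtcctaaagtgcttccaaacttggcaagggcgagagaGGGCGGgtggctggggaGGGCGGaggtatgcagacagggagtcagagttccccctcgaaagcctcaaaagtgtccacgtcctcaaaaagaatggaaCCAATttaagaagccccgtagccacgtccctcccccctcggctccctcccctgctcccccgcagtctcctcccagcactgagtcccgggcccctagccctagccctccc
Col3a1: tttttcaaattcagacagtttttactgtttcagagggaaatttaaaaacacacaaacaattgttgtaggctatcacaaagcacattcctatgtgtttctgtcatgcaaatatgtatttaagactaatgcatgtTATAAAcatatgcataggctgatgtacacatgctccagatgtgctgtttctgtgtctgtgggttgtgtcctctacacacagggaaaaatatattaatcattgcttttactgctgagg
Col5a1: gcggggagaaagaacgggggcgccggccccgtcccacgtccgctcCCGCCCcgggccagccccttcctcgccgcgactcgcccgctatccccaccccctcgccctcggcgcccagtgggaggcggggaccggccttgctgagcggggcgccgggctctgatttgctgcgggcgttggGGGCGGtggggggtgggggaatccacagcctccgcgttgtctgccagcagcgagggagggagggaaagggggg
Col6a1: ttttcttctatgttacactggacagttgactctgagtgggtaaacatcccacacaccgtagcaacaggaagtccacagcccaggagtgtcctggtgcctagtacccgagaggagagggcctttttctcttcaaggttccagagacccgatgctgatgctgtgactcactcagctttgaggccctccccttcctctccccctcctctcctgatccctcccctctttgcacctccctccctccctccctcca
Col6a3: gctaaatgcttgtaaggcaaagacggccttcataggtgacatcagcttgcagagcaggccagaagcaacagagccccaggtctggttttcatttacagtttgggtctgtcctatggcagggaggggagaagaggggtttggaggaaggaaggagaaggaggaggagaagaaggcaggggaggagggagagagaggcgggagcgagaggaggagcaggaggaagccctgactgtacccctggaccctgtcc
Col8a1: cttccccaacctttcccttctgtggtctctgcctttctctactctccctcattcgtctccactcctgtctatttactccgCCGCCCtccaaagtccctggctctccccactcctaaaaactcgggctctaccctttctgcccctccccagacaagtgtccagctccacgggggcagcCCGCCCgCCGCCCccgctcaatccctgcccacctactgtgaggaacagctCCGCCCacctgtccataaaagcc

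The windows differed in these letters, and GGGCGG was in 3 of the 6 shown. That of Col1a2 held 1 CCAAT, starting 109 bases before the start, and 2 GGGCGG, that of Col5a1 also 2 GGGCGG, that of Col3a1 a single TATAAA starting 117 bases before it, and those of Col6a1 and Col6a3 held none of the motifs. Both windows listed for Col6a2, a further type VI chain not shown, held GGGCGG. Among the 6 shown, the share of G and C ranged from 35.2% in Col3a1 to 76.4% in Col5a1. Both strands were searched, and matches of different motifs overlapped in 0 places of the member windows. GGGCGG was in 20 of the 33 windows listed for 31 member genes (60.6%) and in 32.7% of all 32841 windows of the same length. CCAAT was in 12 (36.4%, against 33.9% of all windows) and TATAAA in 4 (12.1%, against 12.4%). The window of Col8a1 held GGGCGG at 4 places and neither of the other motifs.

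Collagen genes were mostly higher in Phc2 L307R, and none by as much as 2-fold. Of the 31 measured genes, 24 had a log2 ratio above 0 (77.4%, against 59.1% of all measured genes). In 3 of the 24, Col22a1, Col23a1 and Col24a1, wild type lay below the floor, so the ratio could only lie above 0. The median of the 31 was 0.34, against 0.06 over all measured genes. The ratios ran from -0.42 in Col4a5 to 0.87 in Col18a1. At least 1.5-fold higher were 3, Col18a1, Col10a1 and Col14a1, and none was 1.5-fold lower; the shares over all measured genes were 4.19% and 3.25%, and 1.11% differed 2-fold in either direction. On the signals as deposited, 16 of the 31 were higher by more than 0.32, the SD between probe sets, and 2 were lower by more. Of all measured genes, 16.8% and 11.0% were. With no floor, 4 of the 31 were at least 1.5-fold higher, Col22a1 then being at 0.66.

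**Figure D1:**
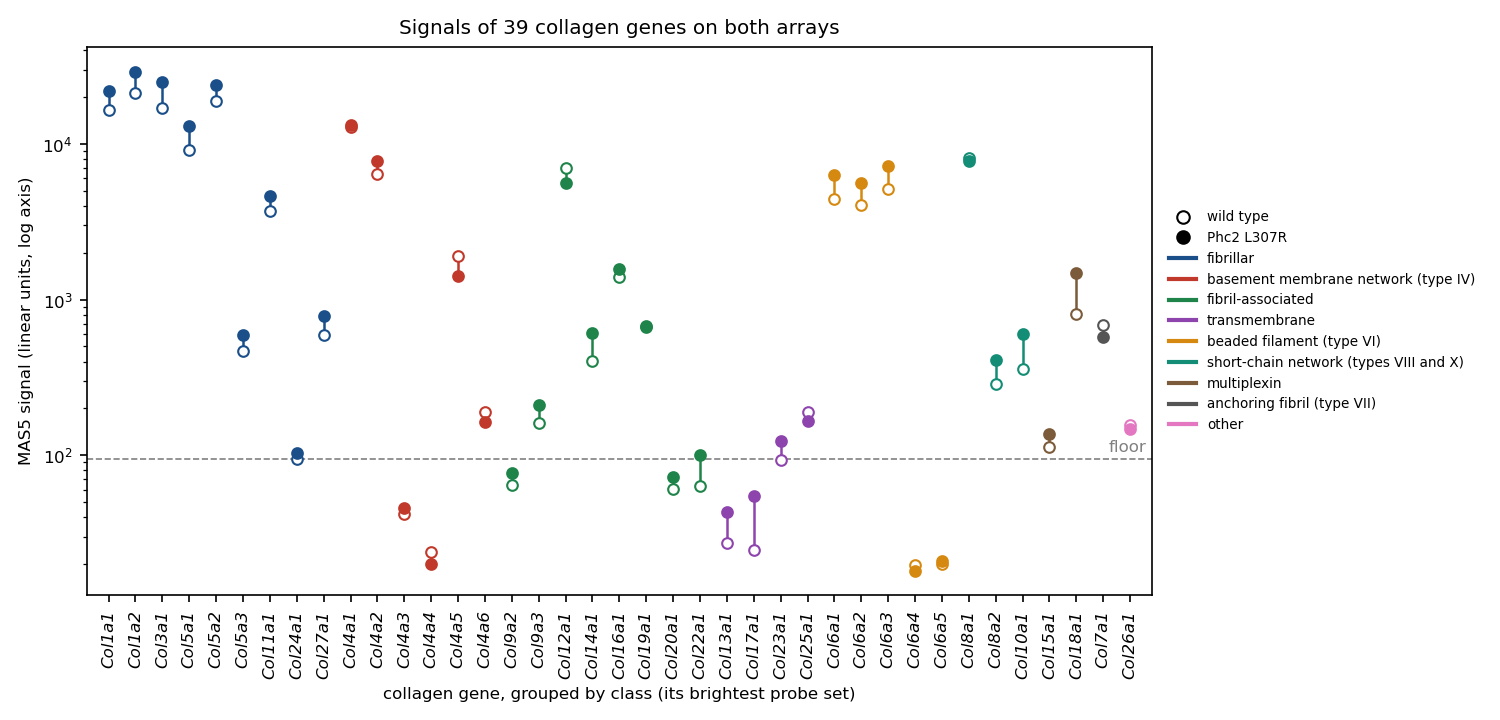
MAS5 signals of the 39 collagen genes (log axis), each at its probe set of highest mean signal and grouped by class; open circles are wild type, filled circles Phc2 L307R, 1 array each, and the dashed line is the floor of 94.8. All 9 fibrillar and the 3 measured type VI genes have the filled circle above the open one, while the 8 genes below the line were not measured.

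Fibrillar collagens were higher as a class. All 9 were measured and all 9 had a log2 ratio above 0, against 59.1% of all measured genes. With the mean over each gene's probe sets, Col5a2 and Col11a1 were below 0, at -0.11 each. The median of the 9 was 0.40, with a range from at least 0.12 in Col24a1 to 0.56 in Col3a1. Col24a1 was above the floor in Phc2 L307R alone, so its ratio could only lie above 0. None reached 1.5-fold, and on the signals as deposited 7 of the 9 exceeded the SD between probe sets of 0.32. Among all measured genes, 16.8% were higher by more than this SD. With quantile normalization (equal distributions on both arrays), Col1a1, Col1a2 and Col5a2 were below 0.32, at 0.23, 0.19 and 0.13. With loess on mean signal these were at 0.28, 0.30 and 0.21, and Col5a3 was at 0.31. Col3a1, Col5a1 and Col27a1 exceeded 0.32 under either scaling.

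Type I collagen is the main fibril of bone, skin and tendon, and its helix joins chains of Col1a1 and Col1a2. The signals of Col1a1 were 16448 for wild type and 21724 for Phc2 L307R (log2 ratio 0.40), and a second probe set gave 0.31. Col1a2 had signals of 21271 and 28993, a ratio of 0.45, and its further probe sets gave 0.42 and 0.40. The ratios of these partner chains differed by only 0.05, well inside the SD between probe sets, and every one of their 5 probe sets was higher in Phc2 L307R. Those of lower signal, at 1072 and 202.9 in wild type, gave ratios close to the bright ones.

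Col3a1 encodes the fibril that accompanies type I in skin and vessel walls. It was at 16919 and 24876, which gives the highest ratio of the fibrillar genes (0.56), and a second probe set gave 0.29. Type V collagen sits inside these fibrils and limits their width. Col5a1, its first chain, had signals of 9104 and 12948, a ratio of 0.51, with 0.36 and 0.34 at the further probe sets. All 3 probe sets of Col5a1 and both of Col3a1 thus lay above 0.

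The remaining type V chains were less clear. Col5a2 was at 18743 in wild type and 23795 in Phc2 L307R, a log2 ratio of 0.34, but its second probe set went the other way, from 7517 to 5117, a ratio of -0.55. Col5a3, a minor chain, was at 467 and 592, a ratio of 0.34, from its only measured probe set. Col11a1, whose chain can join those of type V and which is also known from cartilage, repeated the split of Col5a2. It gave 3730 and 4613 at one probe set (0.31) and 3562 and 2463 at the other (-0.53). The direction of Col5a2 and Col11a1 therefore depends on the probe set, and the mean over both was -0.11 for either gene.

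Col27a1, a fibrillar collagen of growing cartilage, was at 592.8 and 787, a log2 ratio of 0.41, and its second probe set gave 0.92 (227 and 428.5), the highest of the measured member probe sets. Col24a1, a fibrillar collagen of developing bone, lay just below the floor in wild type (94.4) and just above it in Phc2 L307R (102.9). Its ratio of at least 0.12 is too close to the floor to say more. Without Col11a1 and Col27a1, the fibrillar median was also 0.40.

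Genes as bright as the main fibrillar collagens were also mostly higher. Col1a1, Col1a2, Col3a1 and Col5a2 had mean signals of at least 16000, a limit chosen after the values were seen, and had a median log2 ratio of 0.42. The 107 other measured genes this bright had a median of 0.24, and 97 of them were higher in Phc2 L307R. The upper ends of the arrays differed as well, with the signal at percentile 99.9 at 24633 for wild type against 30426 for Phc2 L307R. With quantile normalization, which makes both arrays' distributions equal, the medians were 0.21 for these 4 collagens and 0.00 for the other 107 genes, and the ratios of Col1a1 and Col1a2 were 0.23 and 0.19. Between 4000 and 16000, where 9 collagen genes lay, their median was 0.31, against 0.06 for the 909 others. The part of brightness in the collagen ratios was not tested.

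**Figure D2:**
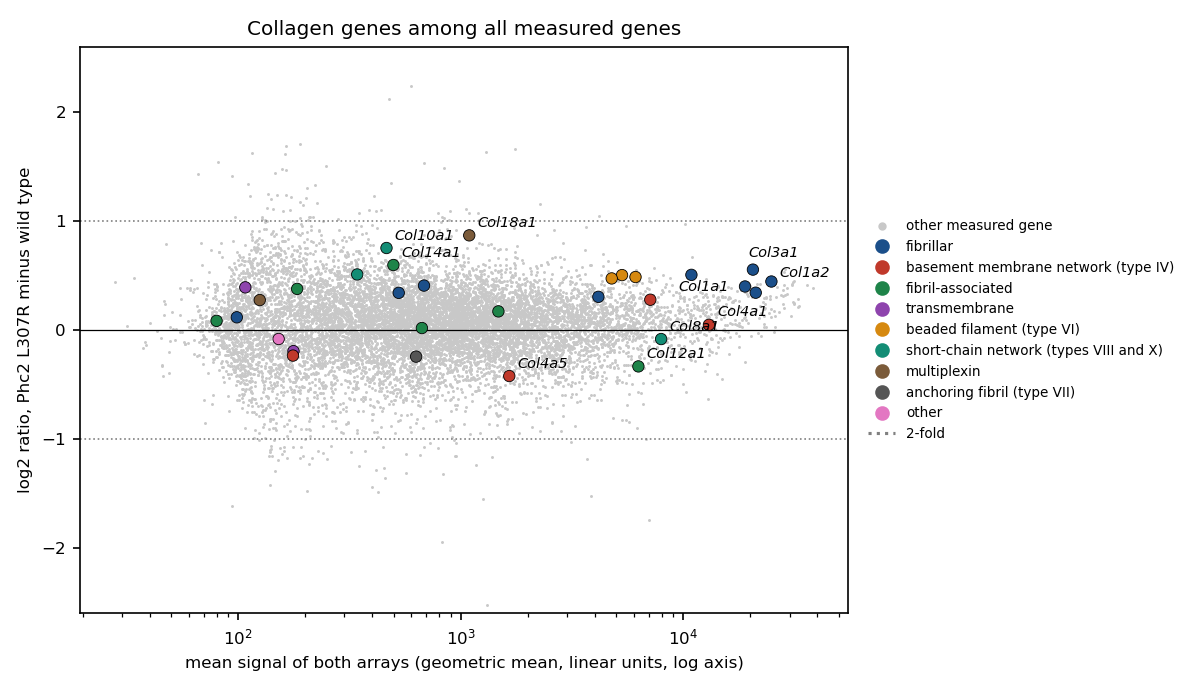
Log2 ratio of Phc2 L307R over wild type against the geometric mean signal (log axis) for all 11408 measured genes (grey, 2 lie beyond the plotted range) and the 31 measured collagen genes, coloured by class. The dotted lines mark 2-fold, which no collagen gene reaches; at the right edge the grey points also lie mostly above 0.

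The basement membrane collagens of type IV had no common direction. Of 6 genes, 4 were measured, 2 above 0 and 2 below, with a median of -0.09 that turned to 0.10 with the mean over each gene's probe sets. Col4a1 and Col4a2 encode the chains found in almost every basement membrane. Col4a2 had signals of 6441 and 7819, a log2 ratio of 0.28, from its only probe set. Col4a1 was at 12794 and 13239, a ratio of 0.05 that turned to -0.03 with quantile normalization, -0.01 with centring and -0.05 with loess, while its second probe set, at 4984 and 6497, gave 0.38. Col4a1 and Col4a2 start back to back, 21 bases apart in the RefSeq annotation, and their ratios differed by 0.23, less than the SD between probe sets.

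Col4a5 and Col4a6, a second back-to-back pair with starts 1343 bases apart on the X chromosome, encode chains of the basement membranes of kidney and smooth muscle. Both were lower in Phc2 L307R at their brighter probe sets. Col4a5 was at 1910 and 1426, a log2 ratio of -0.42, the lowest of all measured collagen genes, but its second probe set, at 888 and 1170, gave 0.40. Col4a6 was at 191 and 162.5, a ratio of -0.23. The mean over the probe sets of Col4a5 was -0.01, so its low ratio rests on 1 of them. Col4a3 and Col4a4, the chains of the kidney filter, had no signal above 45.6 at any probe set.

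Other collagens of the basement membrane zone pointed in both directions. Col18a1, a multiplexin (a collagen with many breaks in its helix) from which the fragment endostatin is cut, was at 806.7 and 1475, a log2 ratio of 0.87 or 1.83-fold, the largest of all members. Its second probe set gave 508 and 706, a ratio of 0.48. Col15a1, the other multiplexin, was at 113.5 and 137.5 (0.28), close to the floor. Col7a1, which forms the fibrils that anchor skin to its basement membrane, was lower, at 684.7 and 578.7 (-0.24).

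Among fibril-associated collagens, 6 of 8 were measured and 5 lay above 0, with a median log2 ratio of 0.13. Col12a1 and Col14a1 sit on type I fibrils of tendon and dermis, and their bright probe sets differed in opposite directions. Col14a1 was at 404.5 and 612, a ratio of 0.60 or 1.51-fold, and 0.10 at a second probe set. Col12a1 was at 7040 and 5591, a ratio of -0.33, against 0.34 (3037 and 3841) at its second measured probe set. For Col12a1 the mean over both was 0.00, so its direction depends on the probe set.

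Of the other fibril-associated genes above the floor on both arrays, only Col9a3 exceeded the SD between probe sets. Col16a1 was at 1389 and 1565 (0.17), and Col19a1 at 663.9 and 673 (0.02), a value that turned to -0.01 with loess and -0.04 with centring; a second probe set of Col19a1 gave 0.27. Col22a1, a collagen of the muscle-tendon junction, was above the floor only in Phc2 L307R, at 100.6 against 63.5, a ratio of at least 0.09. With no floor its ratio was 0.66, so whether it exceeded the SD cannot be said. Col9a3, a chain of the cartilage collagen IX, was at 161.3 and 209.8 (0.38), with 0.10 at a second probe set. Its partner chain Col9a2 stayed below the floor at 64.1 and 77.1, as did all probe sets of Col20a1.

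Transmembrane collagens gave signals near or below the floor. Of 4 genes, Col23a1 and Col25a1 were measured, and the median of these was 0.10, or -0.10 under a higher floor that leaves Col25a1 alone. Col23a1 was at 93 in wild type and 124.5 in Phc2 L307R, a log2 ratio of at least 0.39, and its further probe sets lay below the floor. Col25a1, a collagen of neurons, was at 189.3 and 165.7 (-0.19). Col13a1, of the neuromuscular junction, was at 27.3 and 43.2, and Col17a1, of the hemidesmosomes that hold epithelial cells to the basement membrane, at 24.7 and 54.8. No difference can be read from values this low.

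Type VI collagen forms beaded filaments around cells, built from 1 chain each of Col6a1, Col6a2 and Col6a3. These were the most even group, with all 3 measured and a median log2 ratio of 0.49. Col6a1 was at 4445 and 6312 (0.51), and Col6a3 at 5142 and 7213 (0.49). Col6a2 was at 4038 and 5614 (0.48), with 0.72 at a second probe set. The pairwise differences between the 3 ratios were between 0.01 and 0.03. The related chains Col6a4 and Col6a5 had no probe set above 24.2 on either array.

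The short-chain collagens form hexagonal nets. Col8a1 and Col8a2, the chains of type VIII in vessel walls and the cornea, were unlike each other: Col8a1 was at 8165 and 7718 (-0.08, with -0.08 and 0.11 at further probe sets) and Col8a2 at 286.7 and 409 (0.51). Their ratios differed by 0.59, more than the SD between probe sets and more than in any other pair of chains of 1 protein compared, of 10 pairs in all. Col10a1, the collagen of hypertrophic cartilage, was at 356.8 and 602, a log2 ratio of 0.75 or 1.69-fold. Col26a1 was at 156.2 and 147.7 (-0.08).

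**Figure D3:**
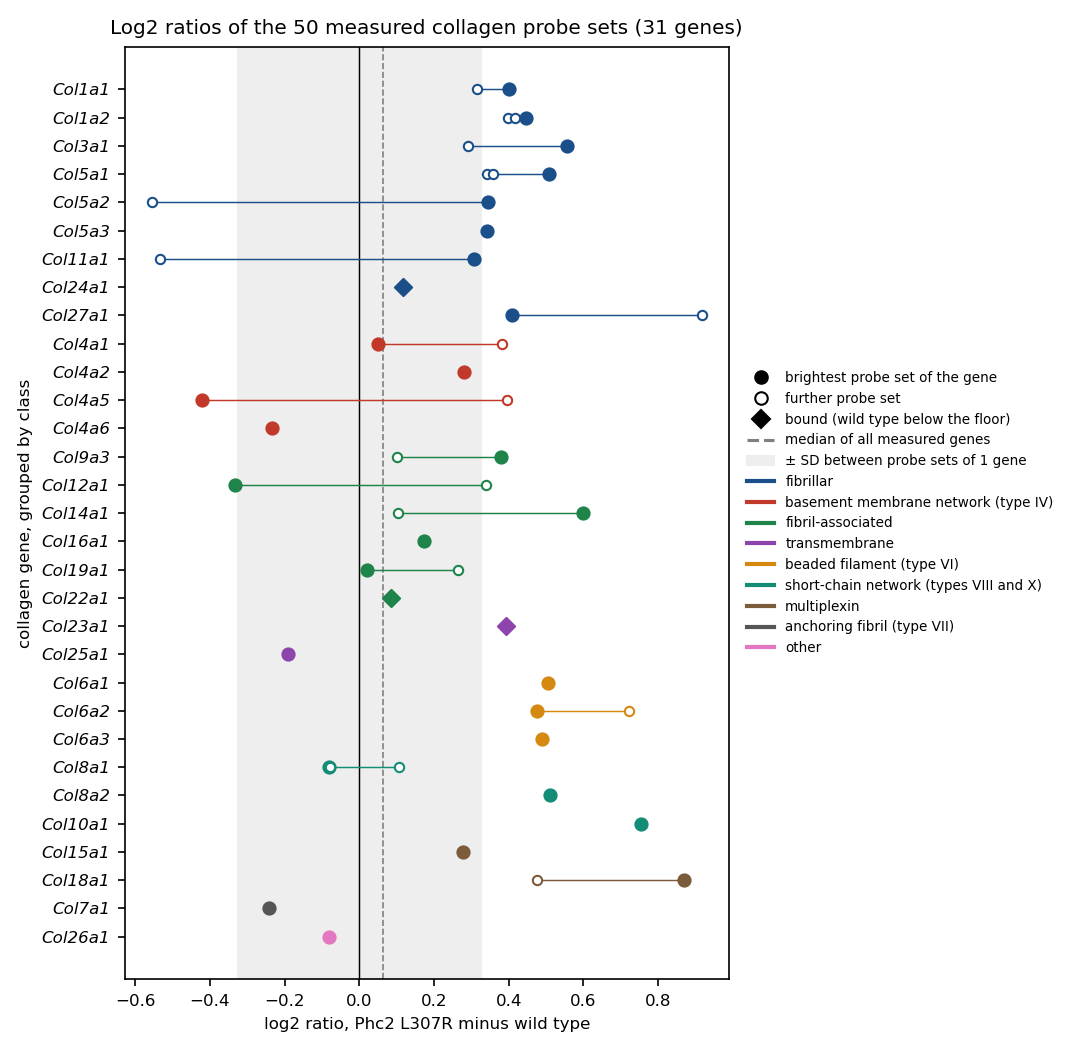
Log2 ratios of the 50 measured probe sets of 31 collagen genes, grouped by class; filled symbols are the probe set of highest mean signal, open ones further probe sets, diamonds bounds, the grey band ± 0.32 (the SD between probe sets) and the dashed line the median of all measured genes, 0.06. Col5a2, Col11a1, Col4a5 and Col12a1 span both sides of 0 widely, while Col1a1, Col1a2, Col5a1 and the type VI genes lie to the right at every probe set.

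Probe sets taken singly gave the same picture. Of the 78, 50 were measured, 47 of them on both arrays, and 40 of the 50 had a log2 ratio above 0, with a median of 0.34. The 3 above the floor on Phc2 L307R alone could only lie above 0. Over all 20737 measured probe sets with 1 symbol, 54.3% were above 0 and the median was 0.03. Of the 16 collagen genes with at least 2 measured probe sets, 5 had probe sets on both sides of 0 (31.3%), namely Col5a2, Col11a1, Col12a1, Col4a5 and Col8a1, against 54.5% of all 5460 such genes. In the other 15 genes the value rests on 1 measured probe set.

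Cartilage and bone genes were higher in the same culture, with larger medians. The collagens left out, Col2a1, Col9a1 and Col11a2, had log2 ratios of 0.49, 0.80 and 1.31. Of 12 chondrocyte markers, 11 were measured and 10 were above 0, with a median of 1.02, and their summed signal went from 6243 in wild type to 9682 in Phc2 L307R; Ucma was not measured and Sox9 was at -0.29. All 4 measured osteoblast markers were above 0 at a median of 0.94, with summed signals of 559.6 and 1602. Phex and Dmp1 were not measured, and Runx2, Bglap and Spp1 had no probe set assigned to them alone. Sp7 (91 and 134) was above the floor in Phc2 L307R alone, as were Cnmd and Matn1 of the chondrocyte markers. The ratios of these genes could therefore only lie above 0. The 4 measured members known also from cartilage had a median of 0.39 and the 27 others one of 0.28, with 20 of the 27 above 0. For the members known from cartilage, the part of the cartilage markers in the result was not tested.

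The markers of other cells differed between lists, mostly higher in some and of mixed direction in others. All 10 fibroblast markers were measured, Vim (vimentin) among them at 30907 and 41327, but 6 were above 0 and 4 below, with a median of 0.11 and summed signals of 59312 and 71445. Vim and Prrx1, counted above 0, had further probe sets down to -0.22 and -0.03. Pdgfra and Pdgfrb, counted below 0, had further probe sets up to 0.77 and 0.33. Of 8 smooth muscle and myofibroblast markers, all measured, 7 were above 0 at a median of 0.37, with sums of 53553 and 67841; Tagln was at 0.42 and Actg2 at -0.09. Endothelial markers were measured for 4 of 9, 3 of them above 0 at a median of 0.23, with Emcn 2-fold lower (-1.15; sums 1509 and 1772, with Pecam1, Cdh5, Tie1, Vwf and Cldn5 below the floor). Macrophage markers were measured for 5 of 9, 4 of them above 0 at a median of 0.57, with Laptm5 2-fold higher at one probe set and at -0.06 at the other (sums 641.8 and 960.4, with Ptprc, C1qa, C1qb and Aif1 below it). Epithelial markers were measured for 4 of 10, 2 of them above 0 at a median of -0.13 (sums 2179 and 2228, with Epcam and Cdh1 among those below it). Skeletal muscle markers were measured for 5 of 8, 3 of them above 0 at a median of 0.01 (sums 6308 and 6086). Neural and glial markers were measured for 5 of 6 with a probe set, all 5 above 0 at a median of 0.43, with Stmn2 2-fold higher (sums 2646 and 4304). Among these, the probe sets of Nes ran from -0.29 to 0.60 and those of Sox10 from -0.38 to 0.26. Gfap, and Tek of the endothelial markers, were above the floor in Phc2 L307R alone, so their ratios could only lie above 0. The macrophage and the neural and glial medians were above the collagen median of 0.34. The part of any of these cells in the collagen ratios was not tested, and in a bulk culture fewer cells of a type and less RNA per cell cannot be told apart.

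Transcripts for proteins that build collagen were also mostly higher. Of 36 genes of collagen processing and crosslinking, 31 were measured, 26 above 0 (83.9%, against 59.1% of all measured genes) and 5 below. Their median log2 ratio was 0.27 and none was at 2-fold. Several of the 26 had a further measured probe set below 0, as low as -0.37. With the mean over each gene's probe sets the median of the list was 0.19. Genes of high signal were mostly higher as well, as given above, and the part of brightness in these ratios was not tested. The highest were Loxl4 (0.55, with 0.10 at a second probe set) and Loxl3 (0.50), lysyl oxidase-like enzymes that crosslink fibrils. Fkbp14, a folding enzyme of the endoplasmic reticulum, was also at 0.55. Tll1, a protease that cuts the ends off procollagen, was the lowest at -0.79, from 1922 to 1113, followed by P3h2 at -0.17 and P4ha2 at -0.06, both prolyl hydroxylases.

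Of 30 genes for proteins bound to fibrils and basement membranes, 28 were measured, with a median log2 ratio of 0.26. Above 0 were 24 (85.7%, against 59.1% of all measured genes). Several of the 24 had a further measured probe set below 0, as low as -1.39. With the mean over each gene's probe sets the median of the list was 0.24. Lum (1.03), Comp (1.02) and Dcn (0.88) were highest, all binders of collagen fibrils, and the lowest were Lamb1 at -0.16 and Smoc1 at -0.09, followed by Lama2 at -0.02. Lum and Dcn were also among the fibroblast markers and Comp among the chondrocyte markers, so these lists are not separate. For collagen breakdown, 9 of 11 measured genes were above 0 (81.8%) with a median of 0.22. Some of these 9 also had a further probe set below 0, and the median with the mean over probe sets was 0.13. The collagenase Mmp13 was at 0.94, Ctsk at 0.46 and Ctsb at 0.45, while Mmp14 was at -0.04 and Mmp9 at -0.11 or lower. Receptors for collagen had no common direction, with 3 of 7 above 0 and a median of -0.06, which was 0.05 once _x_at and _s_at probe sets were omitted. Among these, Mrc2, which takes collagen into the cell, was at 0.60 and Ddr1, a collagen-binding kinase, at -0.48, with its 8 measured probe sets from -0.67 to 0.54.

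**Figure D4:**
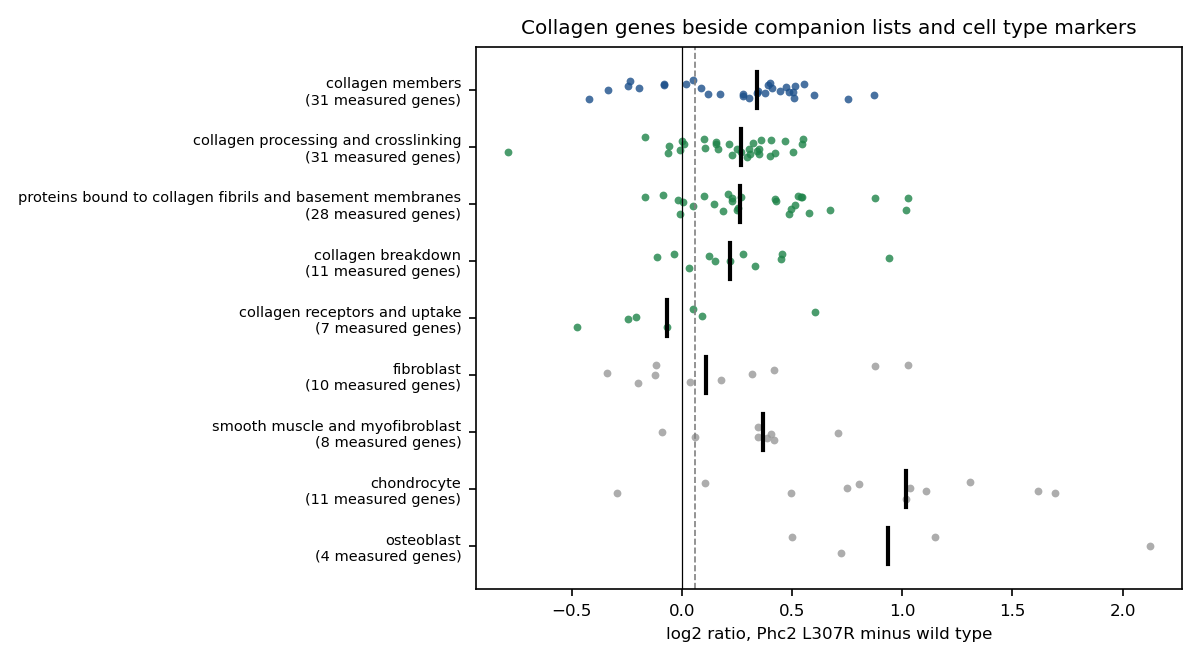
Log2 ratios of single measured genes (points) and their median (black bar) for the collagen members (blue), 4 lists of genes that process, bind, break down or sense collagen (green) and 4 lists of cell type markers (grey); the dashed line is the median of all measured genes. The collagen median of 0.34 lies close to those of processing genes (0.27) and bound proteins (0.26) and below those of chondrocyte (1.02) and osteoblast markers (0.94). Lum, Dcn and Comp are plotted both among bound proteins and among markers.

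Phc2 lies on chromosome 4, and 5 members share that chromosome. Of these, 4 were measured and all were above 0: Col8a2, 14 measured genes from Phc2, Col16a1 at 24 on its other side, Col27a1 at 231 and Col15a1 at 286. Their median was 0.34, as was that of the 27 measured members on other chromosomes, 20 of which were above 0. Of all 692 measured genes on chromosome 4, 60.7% were above 0, with a median of 0.08. Phc2 itself was at 0.36 at one probe set and -0.02 at the other. The missense change need not alter its transcript, so these values do not check the labels.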

How the data were processed

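Total RNA of 2 cultures was hybridised to 1 array each. The authors deposited a linear intensity per probe set; Affymetrix Expression Console and MAS5 are named in the submitters' processing notes, without versions. The values show that the authors' signals were brought to 1 level, a mean of 500.0 on each array once the extreme 2% at either end are set aside. Detection calls, scanner files and the array's genome build were not used here.

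The 64 control probe sets were left out. Symbols were updated through RefSeq genes of GRCm38.p6, used for names and gene order only, and all 39 member symbols matched. Genes were represented by the probe set of highest mean log2 signal; values were computed with Python 3.11.15, pandas 2.3.3 and statsmodels 0.14.6. Calculations were tested on simulated data. With 1 array per genotype no test was run; the number of arrays limits the precision. All members may be named; from the companion lists, up to 3 genes at each end and Phc2 were named by rule, and marker genes after their values were seen. The members, classes and lists were chosen with earlier results of these data known. Alternatives were quantile normalization, loess (span 0.4, 3 iterations), centring, other floors, no floor, the floor as pseudocount, the mean over probe sets, removal of _x_at and _s_at probe sets, other thresholds, and omission of members on chromosome 4 or known from cartilage.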

Additional observations from a re-analysis of the deposited data

How the results depend on the processing

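The median log2 ratio of the measured collagen genes was 0.34 and lay between 0.28 and 0.34 under all 11 alternatives run on it. The number above 0 lay between 22 and 24 where 31 genes were measured. It was 26 of 33 under the 40th percentile floor and 20 of 26 under the 60th. When members on chromosome 4 or known from cartilage were omitted, it was 20 of 27. None was 2-fold higher or lower under any scaling or floor; with a threshold of 1.5-fold, 3 were higher and 0 lower. Medians moved by at least 0.1 as follows. The fibrillar median was 0.30 with loess. The type IV median turned from -0.09 to 0.10 with the mean over probe sets. The genes changed there were Col4a5, from -0.42 to -0.01, and Col4a1, from 0.05 to 0.22. The fibril-associated median was 0.25 under the 40th percentile floor and 0.28 under no floor. Under no floor only Col22a1 changed among these genes, from 0.09 to 0.66. Under the 60th percentile floor, the transmembrane median was -0.10, from Col25a1 alone, and the multiplexin median 0.87, from Col18a1 alone. The short-chain median was 0.40 with the pseudocount. Omitting _x_at and _s_at probe sets moved the median of collagen receptors to 0.05. The type VI median lay between 0.43 and 0.51. Of 274 values of single genes under the alternatives, 8 had the opposite sign, in 5 genes (Col4a1, Col5a2, Col11a1, Col12a1 and Col19a1). Except where a single gene remained or the changed genes are named, the cause was not tested. No paired analysis was possible because there is 1 sample per genotype. Signals near the floor, such as those of Col22a1, Col23a1 and Col24a1, limit what can be said of dim genes.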
